A study of Bos taurus with 9 samples.

Results

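TNFSF10 encodes TRAIL, a death ligand of the tumour necrosis factor family. It was examined here with 7 further genes that carry or restrain the signals of such ligands: XAF1, FAS, FADD, CFLAR, CASP8, BID and TNFRSF1A. Of these, FAS and TNFRSF1A are receptors of other ligands of the family. The 8 members were picked by symbol from the 30641 genes of the deposited count table, and all 8 were found. They were picked because TNFSF10 had been seen to be higher in the transfected cells. XAF1 belongs to the interferon-stimulated genes that were higher there too. Their values in the comparisons of transfected cells are therefore a description, given with a standard error. Nothing is read from whether a test called them there.

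RNA was sequenced from 9 libraries labelled as bovine endometrial epithelial cells, 3 in each of 3 groups. Untreated control cells received neither reagent nor RNA. Reagent alone cells received the transfection reagent jetMESSENGER 24 hours after seeding. DPPA3 mRNA cells received in vitro produced mRNA of DPPA3 (500 ng) together with jetMESSENGER, at the same time. DPPA3 is a gene of the early embryo. No group received another mRNA, so what the DPPA3 sequence did and what any transfected mRNA would do cannot be told apart. The labels do not say whether replicates came from separate cultures or animals, so every p-value rests on the spread among these libraries alone, which may be technical.

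Death ligands such as TRAIL and the FAS ligand are displayed or shed by cells and bind trimeric receptors on their neighbours or on the same cell. The bound receptor gathers the adaptor FADD and the initiator caspase CASP8, whose activation is held back by CFLAR (FLIP), a caspase-like protein without protease activity. Active CASP8 cleaves effector caspases and BID, which carries the signal to the mitochondria, and inhibitors of apoptosis such as XIAP block the effector caspases unless antagonists such as XAF1 intervene. TNFSF10 and XAF1 are also interferon-stimulated genes, and in the ruminant uterus the embryo's own interferon tau induces such genes at the start of pregnancy.

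Total counts ran from 3890134 in reagent alone replicate 1 to 13258036 in DPPA3 mRNA replicate 1. A count of 0 allows up to 3 counts, which is between 0.226 and 0.747 CPM (normalised read count, scaled to library size) according to the library. The transfected transcript was at 9526, 19312 and 18096 CPM across DPPA3 mRNA replicates 1, 2 and 3 and at 0.217 CPM or less in the other 6 libraries. Epithelial keratins were abundant (KRT8 at 3802 to 4995 CPM), and the epithelial gene CDH1 was at 37.6 to 58.7 CPM. The epithelial genes EPCAM, CLDN4 and ESRP1 stayed below 2 CPM, so the listed epithelial markers were present only in part. All 8 listed stromal markers had enough counts to be tested, against 5 of the 8 epithelial ones. The collagens COL1A1 and COL3A1 reached 8085 to 18918 and 6031 to 10226 CPM, and VIM 1321 to 1725 CPM. DCN was at 89.3 to 259.7 CPM, LUM at 21.1 to 59.8 CPM and PDGFRA at 26.9 to 44.6 CPM. PDGFRB was at 6.41 to 17.2 CPM and THY1 at 0.181 to 1.29 CPM. The summed stromal list was at 15729 CPM or more in every library, and the summed epithelial list at 11048 CPM or less. Libraries labelled epithelial thus held abundant stromal transcripts. Untreated control replicate 1 stood apart from its group, with chi-square values of 68.8 and 53.9 per degree of freedom against its 2 fellows, which gave 14.8 between themselves. TNFSF10 and FAS are also made by immune cells, and of the 14 immune markers PTPRC, CD2, ITGAM and MS4A1 had 0 counts in all 9 libraries. Others of the list had counts in every library, with AIF1 at 3.39 to 6.37 CPM, CD14 at 1.28 to 5.74 CPM and CD68 at 1.19 to 2.98 CPM. The summed level of the immune list was 10.6 to 14.4 CPM in untreated control, 11.2 to 13.6 CPM under reagent alone and 10.5 to 15.4 CPM under DPPA3 mRNA. These are bulk libraries, so fewer cells of a type and less RNA per cell cannot be told apart.

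The ligand TNFSF10 had 10, 271 and 58 counts across DPPA3 mRNA replicates 1, 2 and 3. These counts were 0.754, 24.5 and 4.92 CPM, with exact Poisson 95% intervals of 0.362 to 1.39, 21.7 to 27.6 and 3.74 to 6.36 CPM that cover counting error only. It had 0, 2 and 2 counts in reagent alone replicates 1, 2 and 3 and 9, 3 and 7 counts in untreated control replicates 1, 2 and 3. The intervals of the 3 transfected libraries did not overlap one another, so the libraries differed by more than counting error. As counted, all 3 transfected libraries exceeded all 3 reagent alone libraries. However, the 0 counts of reagent alone replicate 1 allow up to 0.747 CPM, within the interval of transfected replicate 1. By the exact Poisson interval they allow up to 0.919 CPM, more than the 0.754 CPM of transfected replicate 1. That transfected library lay inside the untreated range of 0.325 to 1.45 CPM.

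Against the 4 counts pooled over the reagent alone libraries, the TNFSF10 level in DPPA3 mRNA replicate 1 was 5.25 times as high (exact conditional 95% counting interval 1.51 to 22.9). The same ratio was 170.4 (65.8 to 629.9) in replicate 2 and 34.3 (12.7 to 130.0) in replicate 3. Against the 19 counts of the untreated controls the ratios were 1.02 (0.423 to 2.30), 33.1 (20.8 to 55.8) and 6.65 (3.90 to 11.8). DPPA3 transcript was at 9526, 19312 and 18096 CPM in DPPA3 mRNA replicates 1, 2 and 3, so replicate 1 was the lowest for both genes. TNFSF10 differed between replicates 2 and 3 by more than its counting intervals. Whether its level went with the amount of DPPA3 transcript was not tested. The fitted log2 fold change was 6.03 (SE 1.23) over reagent alone, a value that moves with the prior count because each reagent alone library lies under the floor of 3 counts. It was 3.67 (SE 0.99) over untreated control. Without DPPA3 mRNA replicate 2 these values were 4.24 and 1.83.

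XAF1, the antagonist of XIAP, followed the same order of libraries in part. It measured 1.51, 19.2 and 2.29 CPM across DPPA3 mRNA replicates 1, 2 and 3, against 0, 0.449 and 1.10 CPM under reagent alone and 0.645, 0.108 and 0 CPM in untreated control. Every transfected library lay above every library of the other groups, and replicate 2 again stood far above the other 2. Its pooled counts were 259, 19 and 5 in the DPPA3 mRNA, reagent alone and untreated control groups. The fitted log2 fold change was 3.59 (SE 1.05) over reagent alone and 5.13 (SE 1.23) over untreated control. Without DPPA3 mRNA replicate 2 these values were 1.66 and 3.07, and without untreated control replicate 1 the second was 6.91.

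**Figure D1:**
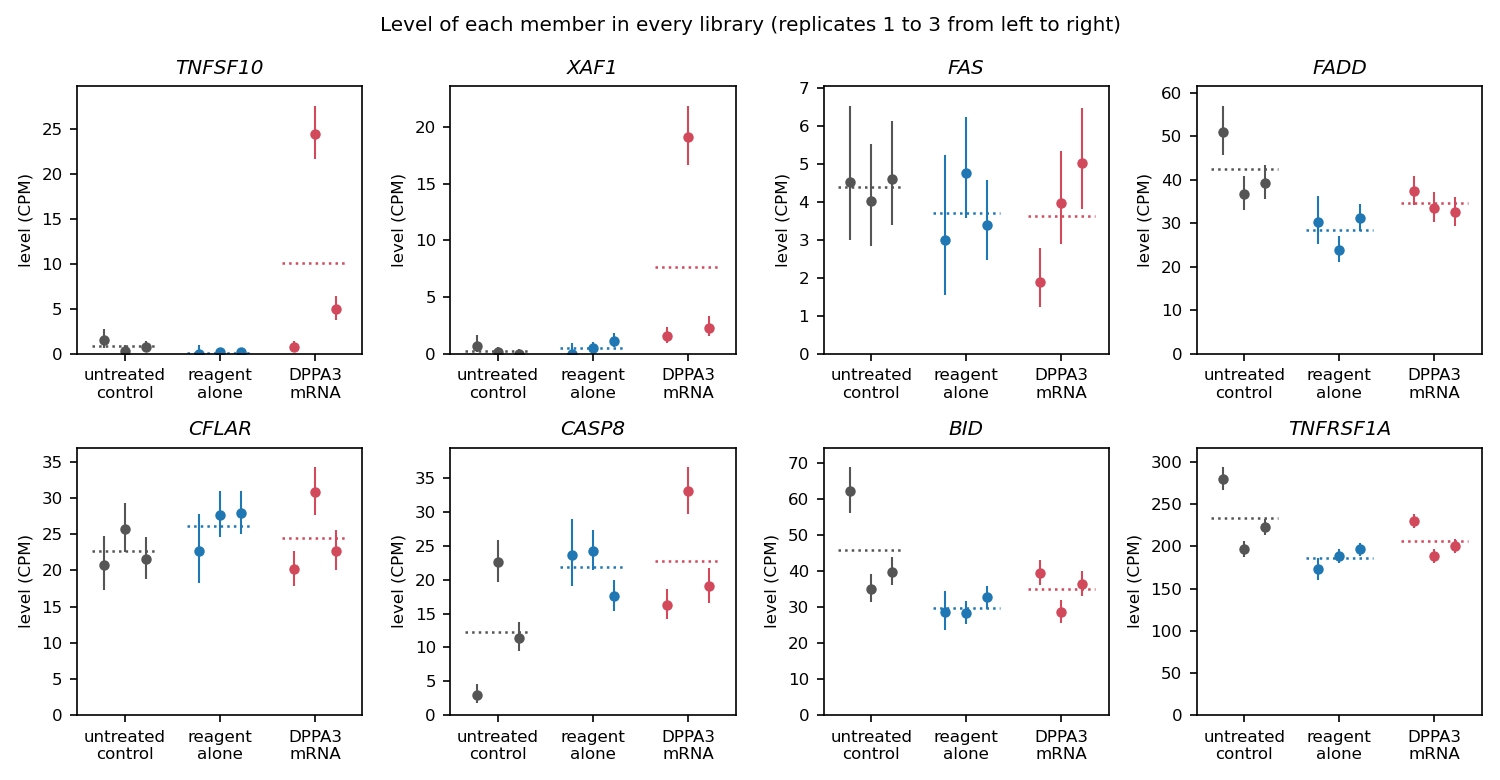
Level in CPM (vertical axis, starting at 0) of each of the 8 members in every library, with replicates 1 to 3 from left to right in each group. Points are single libraries with exact Poisson 95% intervals, which cover counting error only, and dotted lines are group means. TNFSF10 and XAF1 peak in DPPA3 mRNA replicate 2 at 24.5 and 19.2 CPM. Of the 8 members XAF1 alone has, as counted, all its DPPA3 mRNA libraries above all untreated control libraries, though intervals overlap.

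The receptors did not share this pattern. FAS, the receptor of the FAS ligand, measured 1.89, 3.97 and 5.01 CPM across DPPA3 mRNA replicates 1, 2 and 3, 2.99, 4.76 and 3.39 CPM under reagent alone and 4.51, 4.01 and 4.60 CPM in untreated control. Its transfected libraries spanned the whole range of the reagent alone libraries, with replicate 1 below and replicate 3 above all of them. TNFRSF1A, the main receptor of tumour necrosis factor, measured 229.6, 188.5 and 200.2 CPM under DPPA3 mRNA, 173.3, 188.9 and 196.4 CPM under reagent alone and 280.4, 196.9 and 222.9 CPM in untreated control. The transfected range overlapped both others. The fitted log2 fold changes over reagent alone were -0.06 (SE 0.41) for FAS and 0.15 (SE 0.16) for TNFRSF1A, and over untreated control -0.27 (SE 0.41) and -0.18 (SE 0.16).

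Of the receptor complex, the adaptor FADD measured 37.5, 33.6 and 32.6 CPM across DPPA3 mRNA replicates 1, 2 and 3. It measured 30.4, 23.9 and 31.1 CPM under reagent alone and 51.1, 36.8 and 39.3 CPM in untreated control. The transfected libraries all lay above those with reagent alone, by 1.48 CPM at the closest, and the highest of them overlapped the untreated range. FADD was thus ordered with untreated control highest and reagent alone lowest, with log2 fold changes of 0.28 (SE 0.19) over reagent alone and -0.29 (SE 0.19) over untreated control.

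The initiator caspase CASP8 measured 16.3, 33.1 and 19.0 CPM under DPPA3 mRNA and 23.7, 24.3 and 17.6 CPM under reagent alone, so the groups overlapped. In untreated control replicates 1, 2 and 3 it measured 2.90, 22.6 and 11.4 CPM, and replicate 1, the library that stood apart, was the lowest of all 9. CFLAR, its inhibitor, measured 20.1, 30.8 and 22.7 CPM under DPPA3 mRNA, 22.7, 27.7 and 27.9 CPM under reagent alone and 20.8, 25.8 and 21.5 CPM in untreated control. The fitted log2 fold changes over reagent alone were 0.07 (SE 0.48) for CASP8 and -0.10 (SE 0.22) for CFLAR. Both genes were at their highest of all 9 libraries in DPPA3 mRNA replicate 2. The value of CASP8 changed sign to -0.30 without that library and to -0.07 without reagent alone replicate 3, and leaving out single libraries moved CFLAR between -0.29 and 0.03 and FAS between -0.37 and 0.25. The log2 fold changes over untreated control were 0.86 (SE 0.49) for CASP8, and 0.42 without untreated control replicate 1, and 0.11 (SE 0.22) for CFLAR.

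BID, the link from CASP8 to the mitochondria, measured 39.5, 28.7 and 36.5 CPM across DPPA3 mRNA replicates 1, 2 and 3, 28.6, 28.3 and 32.7 CPM under reagent alone and 62.4, 35.1 and 39.9 CPM in untreated control. The transfected libraries overlapped both groups, and replicate 2, the highest for TNFSF10 and XAF1, was the lowest of the 3 for BID. Its log2 fold change was 0.22 (SE 0.23) over reagent alone and -0.39 (SE 0.23) over untreated control. Without untreated control replicate 1 the value over untreated control was -0.10 for BID, -0.13 for FADD and -0.02 for TNFRSF1A.

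Seen by library, TNFSF10 and XAF1 stood apart from the other 6 members. On the log2 scale with 0.5 CPM added, DPPA3 mRNA replicate 2 lay above the mean of the reagent alone libraries by 5.36 for TNFSF10 and 4.43 for XAF1. For the other 6 members that difference ran from -0.05 for BID to 0.60 for CASP8. In replicate 3 it was 3.16 for TNFSF10, 1.61 for XAF1 and between -0.19 and 0.41 for the other 6. In replicate 1 it was 1.05 and 1.14 for TNFSF10 and XAF1 and between -0.80 and 0.40 for the rest.

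By group mean TNFSF10 was ordered DPPA3 mRNA (10.1 ± 12.7 CPM), untreated control (0.82 ± 0.57 CPM) and reagent alone (0.11 ± 0.10 CPM; SD, n = 3). XAF1 was ordered DPPA3 mRNA (7.65 ± 9.97 CPM), reagent alone (0.52 ± 0.55 CPM) and untreated control (0.25 ± 0.35 CPM; SD, n = 3). FADD, BID and TNFRSF1A shared 1 order, with untreated control highest, DPPA3 mRNA between and reagent alone lowest. CASP8 was highest under DPPA3 mRNA, CFLAR under reagent alone and FAS in untreated control. Neighbours in these orders overlapped in every member except for DPPA3 mRNA over reagent alone in XAF1 and FADD. The untreated and reagent alone values of TNFSF10 did not overlap as counted, within the limit its 0 counts set.

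Over all 14874 genes with enough counts to be tested, the quasi-likelihood test of edgeR, adjusted by Benjamini-Hochberg, called 1 gene, DPPA3 itself, for DPPA3 mRNA against reagent alone (0.00672% of genes, 2 genes with replicate number as a block). It called 2 genes, DPPA3 and IFITM1, against untreated control (0.0134%, 7 genes with the block). In each of these comparisons 0 of the 8 members were called, with or without the block. Against reagent alone 6 of the 8 had a positive log2 fold change (50.4% of all genes), and against untreated control 4 of the 8 (50.2%). The transfected libraries lay wholly above reagent alone in 3 members, TNFSF10, XAF1 and FADD (4.91% of all genes), and wholly above untreated control in 1, XAF1 (4.24%). The DESeq2 Wald test called TNFSF10 against reagent alone, and edgeR called it in both comparisons once DPPA3 mRNA replicate 1 was left out. Since these comparisons chose the members, nothing is read from these counts or calls. The threshold on low counts required 0.91 CPM in at least 3 libraries. TNFSF10 met it in 2 transfected libraries and 1 untreated library, and XAF1 in 3 transfected libraries and 1 with reagent alone, so both were tested largely through the group in which they were high. The other 6 members met it in all 9 libraries.

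**Figure D2:**
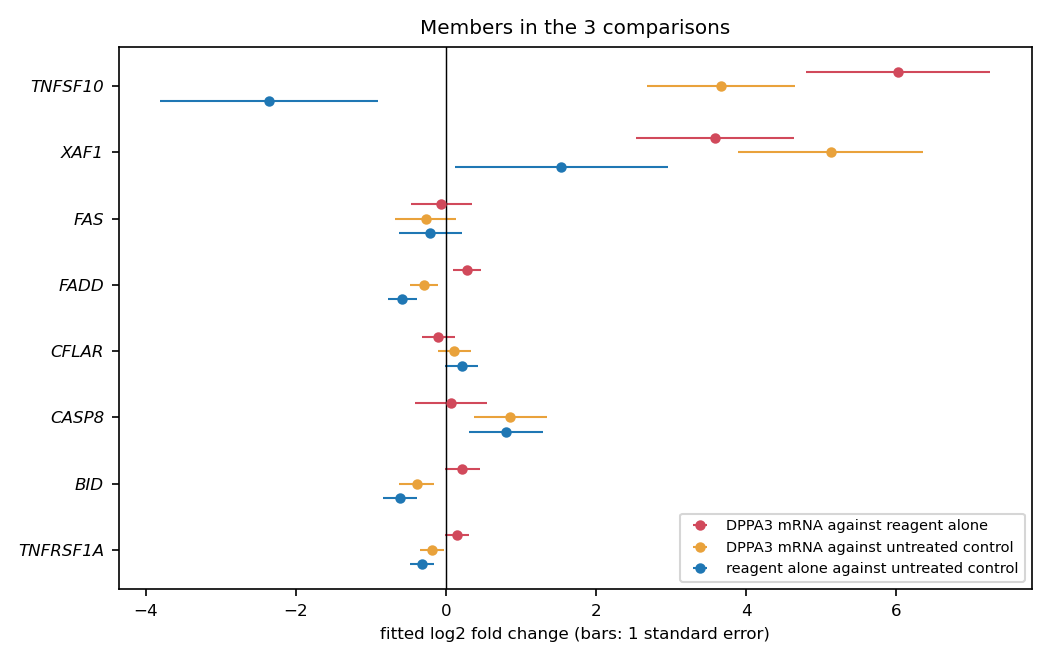
Fitted log2 fold change of each member (horizontal axis) in the 3 comparisons, with bars of 1 standard error; red is DPPA3 mRNA against reagent alone, orange DPPA3 mRNA against untreated control and blue reagent alone against untreated control. TNFSF10 and XAF1 lie between 3.59 and 6.03 in the comparisons of DPPA3 mRNA, and the other 6 members lie between -0.39 and 0.86. The comparisons share libraries pairwise.

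The effect of the reagent by itself was not used to choose the members and was tested. No gene of the 14874 was called by edgeR (0% of genes), 1516 had an unadjusted p under 0.05, and DESeq2 called 2 genes. In 3 of the 8 members, FADD, BID and TNFRSF1A, every reagent alone library lay below every untreated library, and in 0 members above. Over all genes the shares were 7.21% below and 6.92% above. A positive log2 fold change was found in 3 of the 8, against 49.2% of all genes. TNFSF10 is not counted among the 3: its values were lower in each reagent alone library, but the 0 counts of replicate 1 allow up to 0.747 CPM, above untreated control replicates 2 and 3.

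FADD was at 28.5 ± 3.98 CPM under reagent alone and 42.4 ± 7.62 CPM in untreated control (SD, n = 3), a log2 fold change of -0.58 (SE 0.19) at an edgeR adjusted p of 0.47. BID was at 29.9 ± 2.45 and 45.8 ± 14.6 CPM (SD, n = 3), a log2 fold change of -0.61 (SE 0.23) at an edgeR adjusted p of 0.47, and TNFRSF1A at 186.2 ± 11.8 and 233.4 ± 42.7 CPM (SD, n = 3), a log2 fold change of -0.32 (SE 0.16) at an edgeR adjusted p of 0.47. All 3 were highest in untreated control replicate 1. Without that library, which stood apart, the differences were -0.41, -0.31 and -0.16. TNFSF10 had 4 counts over the reagent alone libraries and 19 over the untreated ones, a ratio of 0.194 (95% counting interval 0.048 to 0.584), and XAF1 had 19 and 5. Both are given without a test, since they passed the threshold on low counts mostly through the transfected libraries. FAS, CFLAR and CASP8 overlapped between these groups, with log2 fold changes of -0.21, 0.21 and 0.80 and edgeR adjusted p of 0.82, 0.67 and 0.49. Leaving out single libraries moved FAS between -0.44 (without reagent alone replicate 2) and -0.10 (without reagent alone replicate 1), and CASP8 between 0.36 (without untreated control replicate 1) and 1.54 (without untreated control replicate 2). The reagent alone libraries also enter the comparison with DPPA3 mRNA, so a low reagent level of FADD or BID appears in both.

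Whether the rest of the death machinery moved was examined in 129 further genes listed by role, of which 108 could be tested. Another 17 had too few counts, and 4 (TNFRSF10A, TNFRSF10B, TNFRSF10C and CASP10) were not found by symbol. For DPPA3 mRNA against reagent alone, 0 of the 108 were called higher and 0 lower by edgeR. An unadjusted p under 0.05 was found for 9 of them, and for 3 of the 96 outside the interferon-linked regulators, against 1.67% of all genes, and DESeq2 called 1 of them, IFI6. Without DPPA3 mRNA replicate 1 edgeR called 3, namely ZBP1, IFI6 and IFI27. The median log2 fold change of the list was 0.01, against 0.003 over all genes tested. The transfected libraries lay wholly above reagent alone in 11 of the 108 (10.2%, and 4.91% of all genes) and wholly below in 4 (3.70%, and 3.99% of all genes). Without the 12 interferon-linked regulators, whose behaviour was known when the list was drawn up, 7 of 96 lay above (7.29%) and the median was -0.02. These 96 still include ZBP1, whose values were like those of TNFSF10. They too were listed with earlier results of these data known.

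Among ligands other than TNFSF10, FASLG had 5 counts, TNF 7 and LTA 17 over all 9 libraries, too few to test. LTB, TNFSF12 (TWEAK) and TNFSF14 (LIGHT) were measurable. TNFSF14 was at 0.726 CPM under DPPA3 mRNA and 1.48 CPM under reagent alone, LTB at 3.89 and 2.27 CPM and TNFSF12 at 13.6 and 15.2 CPM, with overlapping groups.

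The receptors of TRAIL could be read only in part, since TNFRSF10A, TNFRSF10B and TNFRSF10C were not found by symbol. TNFRSF10D was listed as a receptor or decoy receptor of TRAIL, and whether it carries a death signal was not tested. It measured 71.8 ± 7.02 CPM under DPPA3 mRNA, 76.5 ± 13.96 CPM under reagent alone and 70.2 ± 16.8 CPM in untreated control (SD, n = 3). Its log2 fold change over reagent alone was -0.09 (SE 0.20) at an edgeR adjusted p of 1. Its span in the RefSeq annotation of ARS-UCD2.0 overlaps 18 other genes, so its counts are uncertain. TNFRSF11B (osteoprotegerin), a soluble decoy, measured 2.98 ± 0.79, 5.28 ± 1.70 and 2.74 ± 1.38 CPM in the same order. Over the 7 tested receptors the median log2 fold change was 0.01, from -0.81 to 0.24, and in 0 of them did the transfected and reagent alone groups separate. For reagent alone against untreated control the decoy receptor TNFRSF6B was lower without overlap, at 28.9 ± 6.54 against 49.3 ± 17.1 CPM (SD, n = 3), a log2 fold change of -0.75 (SE 0.25) at an edgeR adjusted p of 0.47, with untreated control replicate 1 again the highest.

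The 18 tested regulators of the receptor complex had a median of -0.02. RBCK1, a subunit of the linear ubiquitin ligase that acts on the tumour necrosis factor receptor complex, was at 69.1 ± 10.2 CPM under DPPA3 mRNA and 50.1 ± 2.57 CPM under reagent alone, without overlap (SD, n = 3), a log2 fold change of 0.46 (SE 0.21) at an edgeR adjusted p of 1, but at 67.7 ± 20.8 CPM in untreated control. TNFAIP3 (A20), a brake on NF-kB, and DAXX overlapped between the groups, with log2 fold changes of 0.61 (SE 0.36) and 0.23 (SE 0.15).

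The mitochondrial genes had medians near 0. The 16 pro-apoptotic genes had a median of 0.04 and ranged from -0.23 to 0.46, with BOK, which lay wholly above reagent alone, at 0.37, BNIP3 at 0.27 and ENDOG at 0.46. The 4 anti-apoptotic genes, among them MCL1 (-0.06), BCL2L2 (-0.11) and BCL2L1 (-0.16), all had negative values between -0.16 and -0.05. Their shared sign was not stable, since without DPPA3 mRNA replicate 1 the 4 were 2 positive and 2 negative. Against untreated control they were also 2 positive and 2 negative (median 0.06). Against untreated control APAF1, the core of the apoptosome, lay wholly above, at 28.3 against 21.6 CPM (log2 fold change 0.39, SE 0.20).

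The 11 tested effector caspases and substrates had a median of 0.05 in log2 over reagent alone. CASP6, an effector caspase, was at 7.10 CPM under DPPA3 mRNA, 5.92 CPM under reagent alone and 4.92 CPM in untreated control, a log2 fold change over reagent alone of 0.27 (SE 0.35) with overlapping groups. LMNA, a lamin cleaved by effector caspases (0.07), and ROCK1, a kinase activated by such cleavage (-0.20), overlapped between the groups too.

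All 6 tested inhibitors of apoptosis had negative log2 fold changes for DPPA3 mRNA against reagent alone (median -0.28). Without DPPA3 mRNA replicate 1, 5 were negative and 1 positive (median -0.16). For DPPA3 mRNA against untreated control 5 of the 6 were positive (median 0.19). For reagent alone against untreated control all 6 were positive (median 0.52). Untreated control replicate 1 was the lowest untreated library for each of the 6. Without it 5 of 6 were positive for reagent alone against untreated control (median 0.14). For DPPA3 mRNA against untreated control 2 were then positive and 4 negative (median -0.13). BIRC2 and BIRC6 lay wholly below reagent alone under DPPA3 mRNA. The reagent alone libraries are shared by these comparisons. XIAP, the partner of XAF1, was at 33.04 CPM under DPPA3 mRNA, 35.8 CPM under reagent alone and 22.5 CPM in untreated control. BIRC6 was at 241.7 ± 22.4 CPM under DPPA3 mRNA, 285.6 ± 25.5 CPM under reagent alone and 237.1 ± 82.7 CPM in untreated control, and BIRC3 at 12.0 ± 3.87, 14.8 ± 1.52 and 9.59 ± 3.26 CPM (SD, n = 3). NAIP had the most negative value, -1.17 (SE 0.75), at 1.09 CPM under DPPA3 mRNA and 2.39 CPM under reagent alone. None of the 6 was called by edgeR in any of the 3 comparisons, and 0 had an unadjusted p under 0.05.

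Of the genes of necroptosis and pyroptosis, ZBP1, a sensor of Z-form nucleic acids that engages RIPK3, had values like those of TNFSF10. It measured 5.43, 154.7 and 14.6 CPM across DPPA3 mRNA replicates 1, 2 and 3, against 3.24, 1.62 and 3.39 CPM under reagent alone and 2.74, 1.95 and 1.76 CPM in untreated control. Every transfected library lay above the other 6, and replicate 2 lay far above replicate 3 (4.43 in log2 over reagent alone with SE 0.98, at an edgeR adjusted p of 0.62). Its partner RIPK3 had 4 counts over all libraries and CASP1 had 0, and MLKL, the executioner of necroptosis, stayed between 6.23 and 10.3 CPM in all 9. PYCARD, the adaptor of inflammasomes, was at 9.75 CPM under DPPA3 mRNA and 7.67 CPM under reagent alone, with overlap. CASP4, an inflammatory caspase, was at 24.4 ± 10.7, 19.4 ± 1.77 and 12.8 ± 4.85 CPM under DPPA3 mRNA, with reagent alone and in untreated control (SD, n = 3).

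The 12 tested interferon-linked death regulators had a median of 0.77 in log2 fold change over reagent alone, given as a description because their behaviour was known. Without DPPA3 mRNA replicate 2 that median was 0.22. IFI6, an interferon-induced mitochondrial protein, measured 21.3, 460.9 and 88.8 CPM across DPPA3 mRNA replicates 1, 2 and 3, against 2.74, 5.84 and 15.3 CPM under reagent alone (4.47 in log2 with SE 0.88). PML, the organiser of nuclear bodies, measured 60.8, 190.1 and 86.5 CPM there, against 41.8, 49.6 and 60.7 CPM under reagent alone and 63.5 to 95.2 CPM in untreated control. IFI27 reached 14.4, 216.9 and 68.6 CPM in the same 3 libraries, and its replicate 1 lay under the highest reagent alone library, at 17.9 CPM. All 3 followed the order of TNFSF10, with replicate 2 highest and replicate 1 lowest.

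The NF-kB survival arm and the p53 arm had medians of 0.03 and -0.12 over 12 and 10 tested genes. CHUK, a kinase that activates NF-kB, was at 34.1 ± 3.56 CPM under reagent alone, above all untreated libraries (20.9 ± 5.34 CPM) and all transfected libraries (26.5 ± 3.65 CPM; SD, n = 3), with edgeR adjusted p of 0.47 and 1. AEN, a nuclease induced by p53, was at 59.2 CPM under DPPA3 mRNA against 47.3 CPM under reagent alone and 56.6 CPM in untreated control (0.32 in log2 over reagent alone with SE 0.16, at an edgeR adjusted p of 1). NFKB1, the precursor of an NF-kB subunit, lay above both other groups without overlap by a log2 fold change of 0.13 (SE 0.16) over reagent alone, and its inhibitor NFKBIA overlapped (0.17, SE 0.21). SESN1 (-0.33), TP53I3 (-0.42) and TP53INP1 (-0.09) had negative values, of which SESN1 did not overlap.

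**Figure D3:**
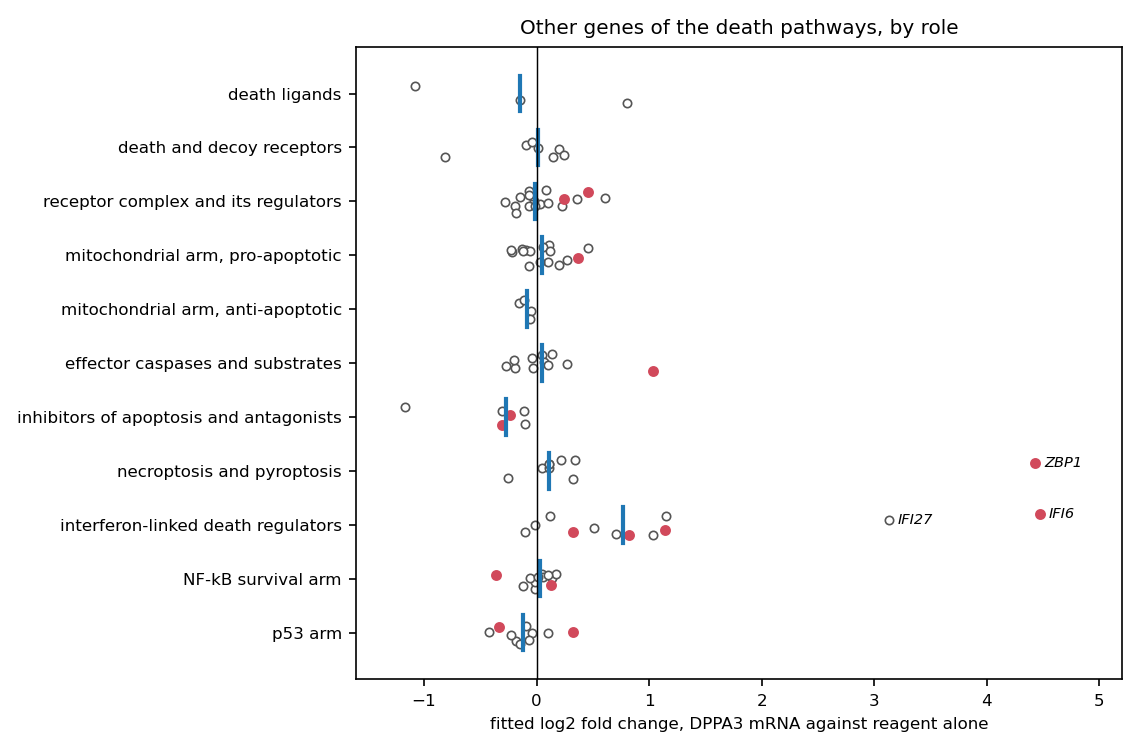
Fitted log2 fold change for DPPA3 mRNA against reagent alone (horizontal axis) of the 108 tested genes outside the members, by role; filled red points are genes whose groups do not overlap, open points those that do, and blue bars are medians. ZBP1 (4.43), IFI6 (4.47) and IFI27 (3.13) lie apart, and the medians of the roles lie between -0.28 and 0.77.

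Against untreated control the list gave the same count, 0 of 108 called by edgeR, with 11 at an unadjusted p under 0.05 (3.91% of all genes) and 2, ZBP1 and IFI6, called by DESeq2. The transfected libraries lay wholly above untreated control in 8 genes (7.41%, and 4.24% of all genes) and wholly below in 2 (1.85%, and 3.86% of all genes). ZBP1, IFI6 and IFI27 had log2 fold changes of 4.78, 4.58 and 3.56.

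For reagent alone against untreated control 0 of the 108 were called by edgeR and 0 by DESeq2, with 8 at an unadjusted p under 0.05 (10.2% of all genes). The reagent alone libraries lay wholly above in 7 genes (6.48%) and wholly below in 7 (6.48%), close to the 6.92% and 7.21% of all genes. The list median was -0.04, against -0.01 over all genes tested. Among these genes BNIP3, a mitochondrial inducer of death and mitophagy, was at 12.98 CPM under reagent alone and 19.4 CPM in untreated control, and TP53INP1 at 87.3 and 62.7 CPM.

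The genes most like TNFSF10 over the 9 libraries were sought among 14155 genes of at least 1 CPM on average, by Pearson's r of log2 values with 0.5 CPM added. The 8 highest were DHX58 (0.975), PARP10 (0.961), TRIM56 (0.959), IRF9 (0.954), UBA7 (0.942), CMTR1 (0.937), TRANK1 (0.928) and ADAR (0.925). Without DPPA3 mRNA replicate 2 their r with TNFSF10 was between 0.76 for ADAR and 0.94 for DHX58. By ranks alone (Spearman's rho over the 9 libraries) the likeness ran from 0.53 for ADAR to 0.93 for DHX58. It was 0.55 for UBA7 and 0.58 for TRANK1. DHX58, a cytosolic RNA sensor of the RIG-I family, measured 11.7, 60.4 and 22.8 CPM across DPPA3 mRNA replicates 1, 2 and 3, and its highest untreated level was in replicate 1, as for TNFSF10. The span of IRF9 overlaps RNF31 in RefSeq, so reads of these genes may be mixed.

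XAF1 ranked at 24 in this order (r 0.89, and 0.63 without DPPA3 mRNA replicate 2). The other members ranked between 2131 and 7068, with r of 0.29 for CFLAR, 0.25 for FAS, 0.19 for FADD, 0.13 for CASP8, 0.06 for TNFRSF1A and 0.01 for BID. Without DPPA3 mRNA replicate 2 these became -0.47, 0.35, 0.39, -0.36, 0.46 and 0.53 in the same order of genes, so that CFLAR and CASP8 turned negative and BID came near XAF1. These correlations describe 9 libraries in 3 groups and share the group means and the high replicate 2, and genes are not independent replicates.

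**Figure D4:**
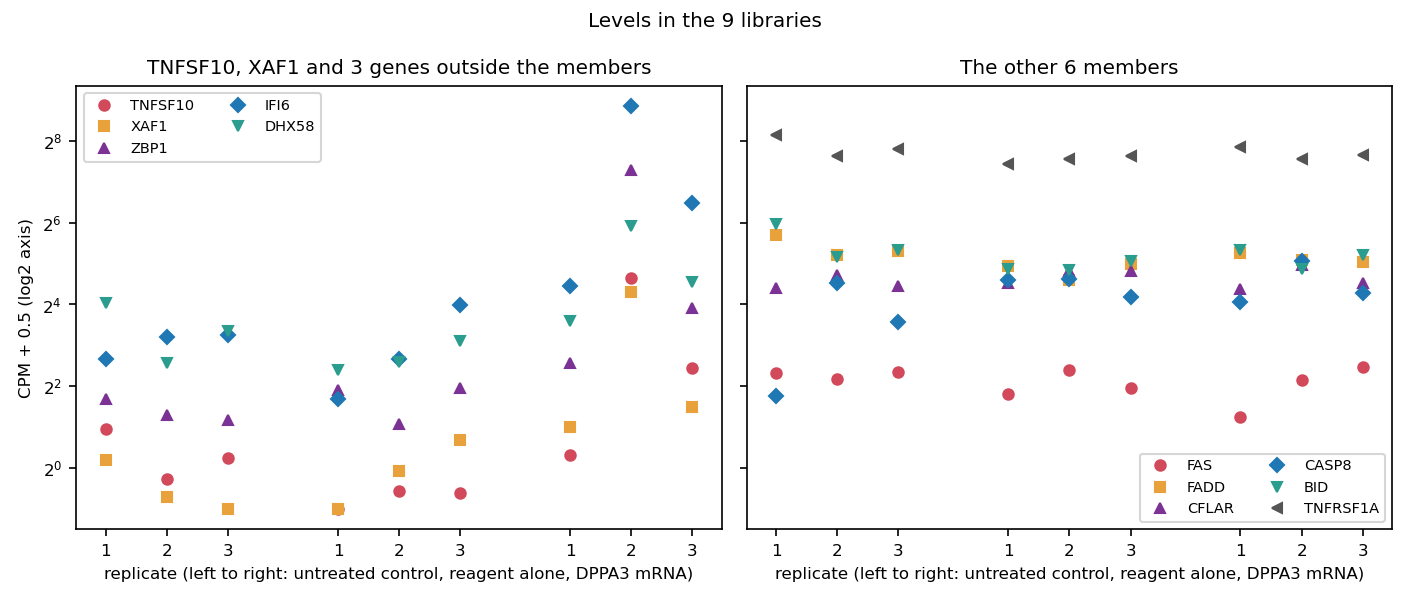
Level plus 0.5 CPM on a log2 axis in the 9 libraries, for TNFSF10, XAF1, ZBP1, IFI6 and DHX58 (left) and for the other 6 members (right); each point is a library, ordered by group and replicate number. The genes on the left are highest in DPPA3 mRNA replicate 2, and of those on the right CASP8 (33.1 CPM) and CFLAR (30.8 CPM) are also highest there, while FAS, FADD, BID and TNFRSF1A are not.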

How the data were processed

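The authors deposited raw read counts per gene symbol, with 1 column per library. Trimmomatic, HISAT2, HTSeq and edgeR were used, per the submitters' processing notes. Tool versions, genome build, annotation and strand setting were not given in the sources used here. No coordinates are therefore printed, and overlapping or antisense genes cannot be told apart. Total RNA was extracted with TRIzol and treated with DNase, before library preparation with an IDT xGen RNA kit, per the labels' protocols.

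Counts were tested as deposited in R 4.3.3 with edgeR 4.0.16 (filterByExpr, TMM, glmQLFit and glmQLFTest), with all 3 groups in 1 fit without covariates. Calls required a p under 0.05 after Benjamini-Hochberg adjustment over 14874 genes. Each standard error was derived as the fold change (log2) over the root of the F statistic. CPM use TMM-scaled library sizes. Gene spans come from RefSeq (ARS-UCD2.0), in which 24552 of 30641 symbols matched. The scripts were tested on simulated data.

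The members, gene lists and rules were chosen with earlier results of these data known. The text names all members, up to 3 genes per role with the smallest p for DPPA3 mRNA against reagent alone and 1 for reagent alone against untreated control, receptors of TNFSF10, and the 8 genes most like it. Genes with too few counts, XIAP, MLKL, APAF1, BIRC2 and genes called under an alternative were chosen with their values in view. Not every gene the rule names is reported here. The groups share replicate numbers 1 to 3. Deviations from group means correlated between equal numbers at 0.12 to 0.18 for DPPA3 mRNA with reagent alone, 0.13 to 0.40 with untreated control and 0.13 to 0.18 for reagent alone with untreated control. These values are over 14155 genes of at least 1 CPM on average, and over all tested genes but DPPA3 the lowest was 0.104. All exceeded 0.1, some narrowly, so the numbers may mark pairs, a reading from the data and not the labels. The main fit left such pairs out, so its standard errors and p-values ignore them. The block on replicate number was run only as an alternative. Alternatives comprised the Wald test of DESeq2 1.42.0, its size factors in edgeR, no filter on low counts, a block on replicate number, fits restricted to the 6 libraries of a comparison, library sizes without DPPA3, and leaving out each library.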

Additional observations from a re-analysis of the deposited data

How the results depend on the processing

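The genes called for DPPA3 mRNA against reagent alone, DPPA3 mRNA against untreated control and reagent alone against untreated control were 66, 69 and 18 with no filter and 9, 10 and 2 with DESeq2. With the replicate block they were 2, 7 and 0, and the block changed no call of a member or of the death pathway list. Library sizes without DPPA3, which also removed it from testing, left 0 genes called in each comparison. When any 1 library was dropped, the calls numbered 1 to 20, 1 to 26 and 0 to 1, the highest of the first 2 without DPPA3 mRNA replicate 1. Death pathway genes called numbered 6 and 5 with no filter and 1 and 2 with DESeq2 in the comparisons of DPPA3 mRNA, and 0 to 3 and 0 to 3 without single libraries, and were 0 under every alternative for reagent alone. With no filter TNFSF10 and XAF1 were called in both comparisons of DPPA3 mRNA, from which nothing is read since these comparisons chose them. The causes were not tested. The log2 fold change of TNFSF10 ranged from 4.24 to 6.57 over reagent alone and from 1.83 to 4.27 over untreated control without single libraries, lowest without DPPA3 mRNA replicate 2 in each. With the block it was 5.77 and 2.87. The block gave 3.06 over reagent alone and 4.65 over untreated control for XAF1. For CASP8 it gave -0.01 over reagent alone, a change of sign. With only the 6 libraries compared, TNFSF10 had too few counts to be tested against reagent alone or for reagent alone. In the comparison of reagent alone all 8 members kept their direction under every alternative that gave a value. Depth limits TNFSF10 and XAF1 outside the transfected libraries, where they had 0 to 14 counts.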
